A study of Mus musculus with 6 samples.

Results

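Complement, coagulation, kinin and fibrinolysis genes, most of them made by hepatocytes and secreted into plasma, were compared between livers that lack 2 nuclear receptors in hepatocytes and control livers. The 44 genes were chosen by name (22 of complement, 22 of coagulation and its kinin and plasmin branches) from 48699 genes in the deposited table, and all 44 were found. In the double knockout group (3 male mice), hepatocytes lacked Fxr (Nr1h4) and Shp (Nr0b2). The control group (3 male mice) was homozygous for floxed alleles of both genes. All were C57BL/6 mice aged 10 to 12 weeks that had fasted 8 to 10 hours, and the column names add that they ate chow. The promoter that drove the deletion in hepatocytes is not named in the sources used here, and other liver cells keep both genes by design. Expression was given as FPKM, fragments per kilobase of transcript and per 1000000 mapped fragments, 1 value per gene and library.

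Complement and coagulation are cascades of plasma proteases, in which each enzyme cuts and activates the next. Complement is started by antibody and C1 (classical pathway), by sugar-binding lectins (lectin pathway) or spontaneously on surfaces (alternative pathway). These routes meet at C3 and end in the membrane attack complex. Coagulation ends with thrombin cutting fibrinogen into fibrin, which plasmin later dissolves. Bile acids activate the nuclear receptor FXR, which induces the repressor SHP. In human liver cells, FXR is known to induce the genes of fibrinogen, kininogen and complement C3.

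Both deleted genes were lower in every knockout library than in any control library, and Nr1h4 kept part of its control level. Nr0b2 measured 0.216, 0.0734 and 0.293 FPKM in knockout livers, against 14.7, 17.6 and 18.7 FPKM in control livers. Nr1h4 measured 21.1, 15.5 and 22.0 FPKM in knockout livers, against 59.8, 71.8 and 68.0 FPKM in control livers. Steps in the low values put the depth, in units of 1000000 fragments, at 13.9 to 14.1 in knockout and 13.2 to 14.1 in control libraries. One library stood apart, control replicate 3. The summed FPKM of 12 immediate-early genes was 75.2, 66.2 and 196 in knockout replicates 1, 2 and 3, against 58.0, 81.2 and 843 in control replicates 1, 2 and 3, where each of the 12 peaked in replicate 3. The summed FPKM of 15 acute phase genes was 8830, 24846 and 24035 in the knockouts, against 6717, 8700 and 39180 in the controls. The acute phase, in which cytokines raise the output of many plasma proteins, includes several genes described below. The 7 hepatocyte markers found, of 8 listed, were abundant in all 6 libraries. Their sum was lower in each knockout library (28754 to 48768 FPKM) than in each control library (54670 to 65607 FPKM), most of it was albumin, and its part in the members' values was not tested.

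The 44 genes were among the abundant transcripts of both groups. At the median, a member lay above 96.4% of the 11810 genes tested, and 29 of the 44 were at 100 FPKM or more in every library. Together they made up 2.65%, 2.91% and 2.75% of the summed FPKM in knockout replicates 1, 2 and 3, against 2.45%, 2.37% and 2.72% in control replicates 1, 2 and 3. The summed FPKM of all genes was lower in every knockout library than in any control library. The shares depend on that sum as well as on the members, and the members' own sums were not compared. Fga, Fgg and antithrombin (Serpinc1) were the 3 most abundant, and F8, Cfp and Masp1 were the 3 members under 10 FPKM in at least 1 library. All 44 passed the filter of a mean of at least 0.5 FPKM.

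None of the 44 genes passed limma's threshold, a Benjamini-Hochberg adjusted p under 0.05 over all 11810 genes, where 0.313% of all genes passed. The lowest limma adjusted p of a member was 0.126, for Masp1. At an unadjusted limma p under 0.05, 8 members were higher in the knockouts (18.2% of members, against 6.97% of all tested genes) and 4 were lower (9.09%, against 7.98%). The knockout and control values did not overlap in 15 members. In 8 of these all knockout values were higher (18.2%, against 11.3% of tested genes), and in 7 all were lower (15.9%, against 11.6%). The authors' deposited table, which tested 11844 genes and called 4.58% of them at a q-value under 0.05, called 1 member, Masp1. The median log2 fold change, knockout minus control on the log2(FPKM + 1) scale, was 0.03 over the members and -0.01 over all tested genes. It was 0.29 over the 22 complement genes and -0.01 over the 22 coagulation genes. Under quantile normalization these medians were 0.44 and 0.09. The complement genes include C1qa (0.32), C1qb (0.48), C1qc (0.49) and Cfp (0.41), made mainly by macrophages or other leukocytes. Each of them was highest in knockout replicate 2 and overlapped between the groups. A median without them was not taken.

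**Figure D1:**
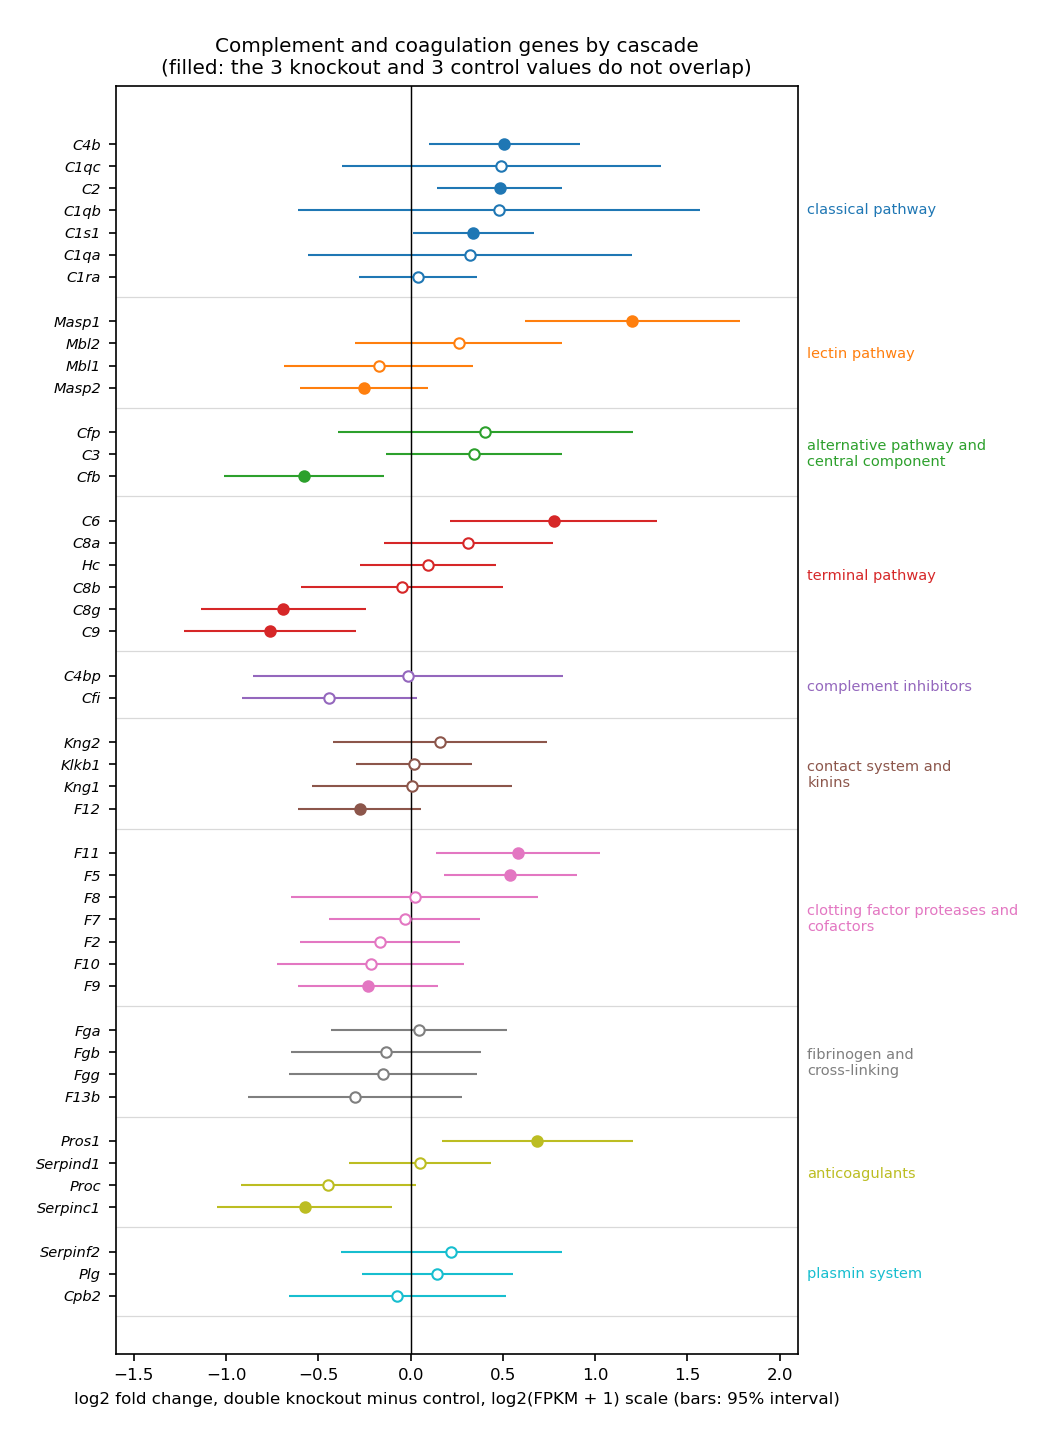
Log2 fold change of each of the 44 genes, double knockout minus control on the log2(FPKM + 1) scale (x axis), grouped by cascade down the page. Points are limma estimates from 3 libraries per group, lines are 95% intervals, and filled points mark the 15 genes whose knockout and control values did not overlap. Masp1, at 1.20, lies farthest from 0, and C9, at -0.76, lies lowest.

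These counts moved when control replicate 3 was left out. Without it, 2 members passed limma's threshold, Masp1 and Pros1, both higher in the knockouts, where 1.31% of tested genes passed in that direction. The groups then did not overlap in 19 members with higher knockout values (43.2%, against 21.6% of tested genes) and in 8 with lower ones (18.2%, against 23.1%), and the median of the members was 0.19.

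Of the lectin pathway, which mannose-binding lectins start on microbial sugars, Masp1 differed most. Masp1 encodes MASP-1, the protease that activates MASP-2, and, by other splice forms, MASP-3 and a shorter inhibitor, and the FPKM covers the whole gene. It measured 22.3, 28.7 and 30.0 FPKM in knockout livers, against 11.5, 7.63 and 15.4 FPKM in control livers. Every knockout value was above every control value. Means were 27.0 ± 4.14 FPKM in knockouts and 11.5 ± 3.87 FPKM in controls (SD, n = 3 each), a 2.35-fold difference with a log2 fold change of 1.20 with SE 0.25 (limma adjusted p = 0.126). In the authors' deposited table Masp1 was called higher (q = 0.00121). Without control replicate 3 its log2 fold change was 1.42 (limma adjusted p = 0.0347), and over all alternatives its adjusted p lay between 0.0162 and 0.371.

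Masp2, which encodes the lectin pathway protease that cuts C4 and C2, lay the other way. It measured 163, 155 and 176 FPKM in knockout livers, against 182, 192 and 216 FPKM in control livers, with no overlap. Its log2 fold change was -0.25 (limma adjusted p = 0.455), and -0.02 under quantile normalization. Within each library, the ratio of Masp1 to Masp2 FPKM was 0.137, 0.185 and 0.171 in knockouts, against 0.0634, 0.0397 and 0.0710 in controls. The ratio does not depend on library scaling. Its groups had to be apart, because Masp1 was higher and Masp2 lower in every knockout library. The mannose-binding lectins themselves overlapped. Mbl2 measured 280, 364 and 395 FPKM in knockouts, against 217, 292 and 369 FPKM in controls. Mbl1 measured 282, 270 and 288 FPKM in knockouts, against 255, 287 and 431 FPKM in controls, where the highest value was that of control replicate 3.

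In the classical pathway, all 7 members had a positive log2 fold change, as had 5807 of all 11810 tested genes. The median of the 7, 0.48, was the value of C1qb, whose groups overlapped. Without knockout replicate 2 the log2 fold change of C1qb was 0.06 and that of C1qa -0.07. In 3 of the 7 members the groups did not overlap. C4b, the thioester protein that C1s cleaves, measured 300, 325 and 312 FPKM in knockout livers, against 188, 264 and 211 FPKM in control livers (log2 fold change 0.51, 95% interval 0.10 to 0.92, limma adjusted p = 0.262). C2, the protease subunit that joins C4b in the C3 convertase, measured 63.3, 61.6 and 66.0 FPKM in knockouts, against 42.3, 41.9 and 52.2 FPKM in controls (0.48, 95% interval 0.14 to 0.82, limma adjusted p = 0.214). C1s1, the protease of the C1 complex that cuts C4 and C2, measured 212, 236 and 208 FPKM in knockouts, against 169, 176 and 172 FPKM in controls (0.34, limma adjusted p = 0.324). All 3 genes were therefore higher in every knockout library, by 1.41-fold, 1.40-fold and 1.27-fold of the means, and none passed limma's threshold over all genes. The other protease of the complex, C1ra, whose product activates C1s, measured 86.7, 89.2 and 84.1 FPKM in knockouts, against 82.7, 92.5 and 78.5 FPKM in controls, and its 95% interval ran from -0.28 to 0.36. C1ra and C1s1 lie 6901 bases apart on chromosome 6 in opposite orientation. Its ratio to C1ra set C1s1 apart too, at 2.44, 2.65 and 2.48 in knockouts, against 2.05, 1.90 and 2.19 in controls. C4b has a close copy, C4a, listed at 7.43 to 27.4 FPKM, and the sources used here do not say how reads shared by the copies were assigned.

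The 3 C1q genes, C1qa, C1qb and C1qc, encode the chains of the antibody-binding subunit and are made by macrophages, not hepatocytes. C1qa measured 31.6, 57.8 and 20.4 FPKM in knockouts, against 23.3, 21.6 and 37.3 FPKM in controls. C1qb measured 25.5, 63.4 and 25.9 FPKM in knockouts, against 19.9, 16.1 and 46.3 FPKM in controls. C1qc measured 26.2, 46.1 and 21.7 FPKM in knockouts, against 16.3, 15.9 and 34.8 FPKM in controls. Each was highest in knockout replicate 2 and next highest in control replicate 3, and the groups overlapped. Of 10 Kupffer cell and macrophage markers, all 10 were highest in knockout replicate 2, and control replicate 3 was next highest in 6. Clec4f, a lectin of Kupffer cells, measured 36.0, 72.2 and 25.2 FPKM in knockouts, against 29.3, 23.2 and 48.7 FPKM in controls. The 10 markers summed to 160, 319 and 154 FPKM in knockouts, against 75.7, 61.6 and 162 FPKM in controls, and none was at 0 in a library. One of the 10 passed limma's threshold, Mpeg1, a pore-forming protein of macrophages. It measured 58.2, 73.5 and 57.3 FPKM in knockouts, against 5.12, 7.12 and 17.7 FPKM in controls (log2 fold change 2.71, limma adjusted p = 0.0490, between 0.00153 and 0.234 over the alternatives). The other 9 markers summed to 102, 246 and 96.9 FPKM in knockouts, against 70.6, 54.4 and 144 FPKM in controls, so without Mpeg1 the sums overlapped as the C1q values did. The ratio of C1qa to Clec4f FPKM lay between 0.800 and 0.877 in knockouts and between 0.766 and 0.933 in controls. The ratios of the other C1q genes to Clec4f varied more. That of C1qb lay between 0.71 and 1.03 in knockouts and between 0.68 and 0.95 in controls. That of C1qc lay between 0.64 and 0.86 in knockouts and between 0.56 and 0.71 in controls. Against Cd5l, a secreted macrophage protein, the ratio of C1qb was lower in every knockout library, at 0.872, 0.733 and 0.638 in knockouts, against 1.18, 1.33 and 0.890 in controls. Fewer cells of a type and less RNA per cell cannot be told apart in whole liver, and the part of macrophage content in the C1q values was not tested. Without knockout replicate 2, the log2 fold change of C1qa was -0.07, against 0.32 with all libraries.

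**Figure D2:**
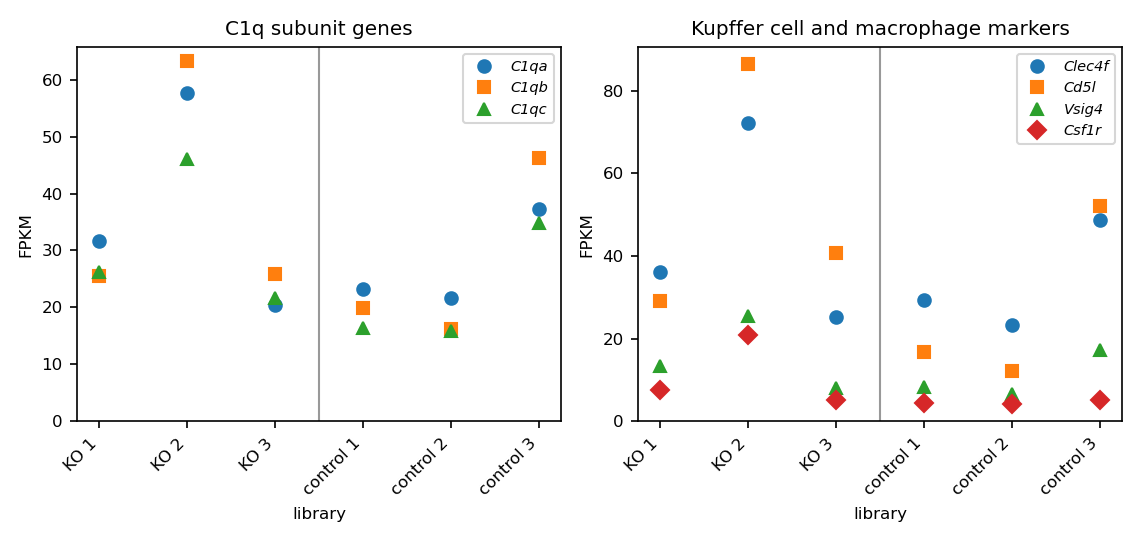
FPKM of the 3 C1q genes (left) and of 4 Kupffer cell and macrophage markers (right) in each library, 3 double knockout (KO) libraries left of 3 control libraries. KO replicate 2 is highest for each gene, for example at 63.4 FPKM for C1qb and 72.2 FPKM for Clec4f.

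C3, where the 3 complement routes meet, and the alternative pathway gave no call. C3 measured 1066, 1463 and 1409 FPKM in knockout livers, against 957, 994 and 1127 FPKM in control livers (log2 fold change 0.34, 95% interval -0.13 to 0.82), and knockout replicate 1 lay below control replicate 3. Cfb, the protease of the alternative C3 convertase, measured 371, 353 and 443 FPKM in knockouts, against 498, 660 and 589 FPKM in controls. All knockout values of Cfb were lower, with a mean of 389 ± 47.8 FPKM against 582 ± 81.0 FPKM (SD, n = 3 each). Its log2 fold change was -0.58 with SE 0.19 (limma adjusted p = 0.239), and -0.30 under quantile normalization. Properdin, Cfp, which stabilises that convertase and is made mainly by leukocytes, measured 8.06, 15.9 and 6.60 FPKM in knockouts, against 6.46, 5.04 and 10.1 FPKM in controls. Like C1q it was highest in knockout replicate 2, followed by control replicate 3.

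Cfb and C2 encode closely related proteases and lie 85 bases apart on the same strand of chromosome 17 (Cfb 34856374 to 34862518, C2 34862604 to 34898265, GRCm38). Their values lay in opposite directions. The ratio of C2 to Cfb FPKM was 0.171, 0.174 and 0.149 in knockouts, against 0.0849, 0.0636 and 0.0886 in controls. The groups could not overlap in this ratio, because C2 was higher and Cfb lower in every knockout library. It was picked after the values were seen. The deposited table gives both genes the same locus, shared also with Zbtb12, Gm20547 and Mir6972, and the sources used here do not say how its reads were divided. In all, 17 members share their deposited locus with other genes. Masp1, Masp2, C1s1, C8g, F5 and Serpinc1 are among them, and the same limit holds for them.

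The 6 terminal pathway genes, whose products form the pore of the membrane attack complex, split. C6, the member that joins C5b first, measured 245, 235 and 142 FPKM in knockout livers, against 132, 119 and 102 FPKM in control livers. Its mean was 207 ± 57.0 FPKM in knockouts and 118 ± 15.1 FPKM in controls (SD, n = 3 each), and the log2 fold change was 0.78 with SE 0.24 (limma adjusted p = 0.226), and knockout replicate 3 lay close to the controls. C9, the subunit that polymerises to line the pore, measured 232, 311 and 197 FPKM in knockouts, against 407, 401 and 428 FPKM in controls. Its mean was 247 ± 58.3 FPKM in knockouts and 412 ± 14.0 FPKM in controls (SD, n = 3 each), and the log2 fold change was -0.76 with SE 0.20 (limma adjusted p = 0.182), and the groups did not overlap. C8g, the lipocalin chain of C8, measured 283, 204 and 255 FPKM in knockouts, against 345, 398 and 452 FPKM in controls (-0.69, SE 0.19, limma adjusted p = 0.195). It too was lower in every knockout library. In the authors' deposited table the q-values were 0.0551 for C6, 0.0787 for C9 and 0.116 for C8g, all above the threshold.

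The other 3 terminal genes overlapped between the groups. C8a measured 235, 277 and 295 FPKM in knockouts, against 188, 196 and 270 FPKM in controls (log2 fold change 0.31, limma adjusted p = 0.483). Hc, which encodes C5, had a mean of 206 ± 19.9 FPKM in knockouts and 193 ± 18.1 FPKM in controls (SD, n = 3 each), and C8b 201 ± 12.8 and 215 ± 68.5 FPKM. The 3 chains of C8 come from separate genes, and none passed the threshold. The ratio of C8g to C8a FPKM was 1.20, 0.736 and 0.865 in knockouts, against 1.83, 2.03 and 1.67 in controls. The ratio of C6 to C9 FPKM was 1.05, 0.757 and 0.719 in knockouts, against 0.325, 0.297 and 0.239 in controls. There the groups had to be apart, because C6 was higher and C9 lower in every knockout library. All ratios given here were picked after their values were seen.

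**Figure D3:**
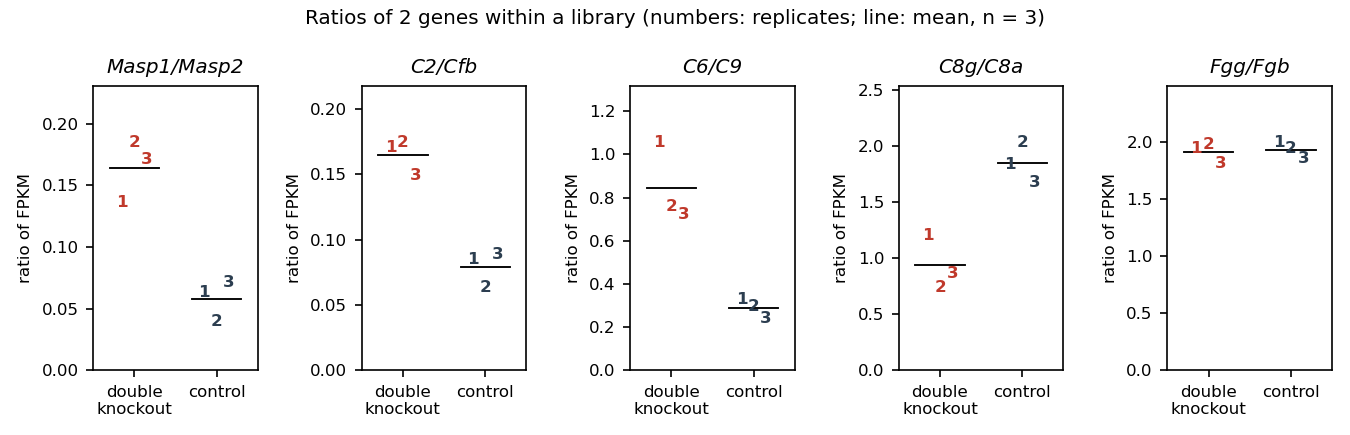
Ratio of the FPKM of 2 genes within each library (y axes), double knockout left of control, with replicate numbers as symbols and lines at the mean of 3 libraries. The groups are apart for Masp1/Masp2, C2/Cfb, C6/C9 and C8g/C8a and overlap for the fibrinogen pair Fgg/Fgb. For Masp1/Masp2, C2/Cfb and C6/C9 this was fixed by the genes, the first higher and the second lower in every knockout library.

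Of the complement inhibitors, Cfi, the protease that cuts C3b and C4b, measured 222, 239 and 292 FPKM in knockout livers, against 282, 329 and 418 FPKM in control livers (log2 fold change -0.44, 95% interval -0.92 to 0.03). C4bp, the cofactor of factor I for C4b, measured 276, 291 and 332 FPKM in knockouts, against 217, 226 and 561 FPKM in controls. Control replicate 3 alone lay above the knockouts, the other 2 controls lay below them, and the log2 fold change was -0.01, or 0.43 without that library (limma adjusted p = 0.163).

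In the contact system, which starts clotting on negatively charged surfaces and releases bradykinin, the values lay close together. F12, the contact factor, measured 199, 192 and 194 FPKM in knockouts, against 228, 258 and 224 FPKM in controls, lower in every knockout library (log2 fold change -0.28, limma adjusted p = 0.407; -0.05 under quantile normalization). Plasma prekallikrein, Klkb1, measured 62.1, 55.1 and 64.3 FPKM in knockouts, against 57.9, 62.5 and 58.3 FPKM in controls, with a 95% interval of -0.30 to 0.34. The kininogens, from which bradykinin is cut, were both highest in control replicate 3. Kng1 measured 1184, 1200 and 1281 FPKM in knockouts, against 970, 1147 and 1615 FPKM in controls (log2 fold change 0.01, 95% interval -0.54 to 0.55). Kng2 measured 186, 178 and 229 FPKM in knockouts, against 137, 158 and 251 FPKM in controls (0.16). The 2 kininogen genes are close copies, 28382 bases apart on chromosome 16, so their split is uncertain.

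Among the clotting factors, F5 and F11 lay higher in every knockout library. F5, the cofactor with which factor Xa makes thrombin, measured 87.1, 85.6 and 85.2 FPKM in knockout livers, against 65.9, 62.2 and 49.5 FPKM in control livers. The mean was 85.9 ± 1.01 FPKM in knockouts and 59.2 ± 8.59 FPKM in controls (SD, n = 3 each), and the log2 fold change was 0.54 with SE 0.15 (limma adjusted p = 0.200). F11, the protease that activates factor IX, measured 55.2, 40.3 and 63.7 FPKM in knockouts, against 36.7, 35.1 and 31.9 FPKM in controls (0.58, SE 0.19, limma adjusted p = 0.241). F11 lies 4657 bases from Klkb1 on chromosome 8 and encodes a related protease. The ratio of F11 to Klkb1 FPKM was 0.889, 0.731 and 0.991 in knockouts, against 0.633, 0.561 and 0.546 in controls.

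The vitamin K dependent proteases of this group, F2, F7, F9 and F10, lay nearer to 0 than F5 and F11. F2, prothrombin, measured 813, 717 and 829 FPKM in knockouts, against 770, 877 and 1013 FPKM in controls (log2 fold change -0.17, 95% interval -0.60 to 0.27). F7, the protease that tissue factor engages, had a mean of 47.2 ± 8.89 FPKM in knockouts and 48.0 ± 5.07 FPKM in controls, and F10, which makes thrombin, 215 ± 34.0 and 253 ± 61.7 FPKM (SD, n = 3 each). F9 measured 85.4, 88.8 and 90.05 FPKM in knockouts, against 90.05, 98.9 and 125 FPKM in controls. The groups of F9 met at the same rounded value, and its log2 fold change was -0.23. F8, the cofactor of factor IX, is made by sinusoidal endothelial cells and was the least abundant member, at 0.419, 1.77 and 0.947 FPKM in knockouts, against 0.942, 0.533 and 1.46 FPKM in controls. These values correspond to about 58 to 241 fragments per library for the longest transcript, and the groups overlapped. The 8 sinusoidal endothelial markers summed to 42.4, 85.8 and 55.6 FPKM in knockouts, against 63.6, 70.1 and 79.2 FPKM in controls, highest in the library with the highest F8, and their part in the F8 values was not tested.

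The fibrinogen genes, a cluster on chromosome 3, include the most abundant members, Fga and Fgg, and the groups overlapped in each of them. Fga measured 3121, 2774 and 3027 FPKM in knockouts, against 2801, 2682 and 3159 FPKM in controls (log2 fold change 0.05, 95% interval -0.43 to 0.52). Fgb measured 1182, 1050 and 1250 FPKM in knockouts, against 1072, 1177 and 1617 FPKM in controls (-0.13, 95% interval -0.65 to 0.38). Fgg measured 2300, 2077 and 2263 FPKM in knockouts, against 2140, 2295 and 3007 FPKM in controls (-0.15, 95% interval -0.66 to 0.36). The lower bounds of the 3 intervals leave room for a fall of up to 0.66 on the log2 scale. Each chain was highest in control replicate 3, and the ratio of Fgg to Fgb FPKM lay between 1.81 and 1.98 in knockouts and between 1.86 and 2.00 in controls. F13b, the carrier subunit of the enzyme that cross-links fibrin, measured 67.7, 64.7 and 78.6 FPKM in knockouts, against 70.4, 72.0 and 128 FPKM in controls (-0.30, or -0.02 without control replicate 3).

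The 4 anticoagulants differed among themselves. Serpinc1, antithrombin, the main inhibitor of thrombin and factor Xa, measured 1564, 1401 and 1612 FPKM in knockout livers, against 1958, 2323 and 2566 FPKM in control livers. It was lower in every knockout library, with a mean of 1526 ± 111 FPKM in knockouts and 2282 ± 306 FPKM in controls (SD, n = 3 each) and a log2 fold change of -0.57 with SE 0.20 (limma adjusted p = 0.272). Pros1, protein S, the cofactor of activated protein C, measured 30.9, 35.9 and 35.4 FPKM in knockouts, against 17.3, 17.4 and 29.4 FPKM in controls. It was higher in every knockout library, with a mean of 34.1 ± 2.78 FPKM in knockouts and 21.4 ± 6.98 FPKM in controls (SD, n = 3 each) and a log2 fold change of 0.69 with SE 0.22 (limma adjusted p = 0.239). Control replicate 3 lay just under the knockouts. Without it Pros1 had a log2 fold change of 0.93 and passed the threshold (limma adjusted p = 0.0289), and over all alternatives the adjusted p lay between 0.0233 and 0.572. In the authors' deposited table its q-value was 0.0570.

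Proc, protein C, measured 236, 181 and 205 FPKM in knockouts, against 268, 354 and 236 FPKM in controls (log2 fold change -0.45, 95% interval -0.92 to 0.03), so protein C and its cofactor lay in opposite directions. Serpind1, heparin cofactor II, measured 261, 221 and 273 FPKM in knockouts, against 226, 230 and 273 FPKM in controls (0.05). In the plasmin system, Plg, plasminogen, measured 1051, 998 and 1105 FPKM in knockouts, against 859, 978 and 1022 FPKM in controls (0.14, 95% interval -0.27 to 0.55). Serpinf2, the inhibitor of plasmin, measured 449, 408 and 515 FPKM in knockouts, against 326, 320 and 569 FPKM in controls (0.22, limma adjusted p = 0.712). Cpb2, the carboxypeptidase that slows fibrinolysis, measured 255, 264 and 292 FPKM in knockouts, against 230, 237 and 419 FPKM in controls (-0.07). All 3 plasmin genes were higher in each knockout than in control replicates 1 and 2, and Serpinf2 and Cpb2 were highest in control replicate 3.

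**Figure D4:**
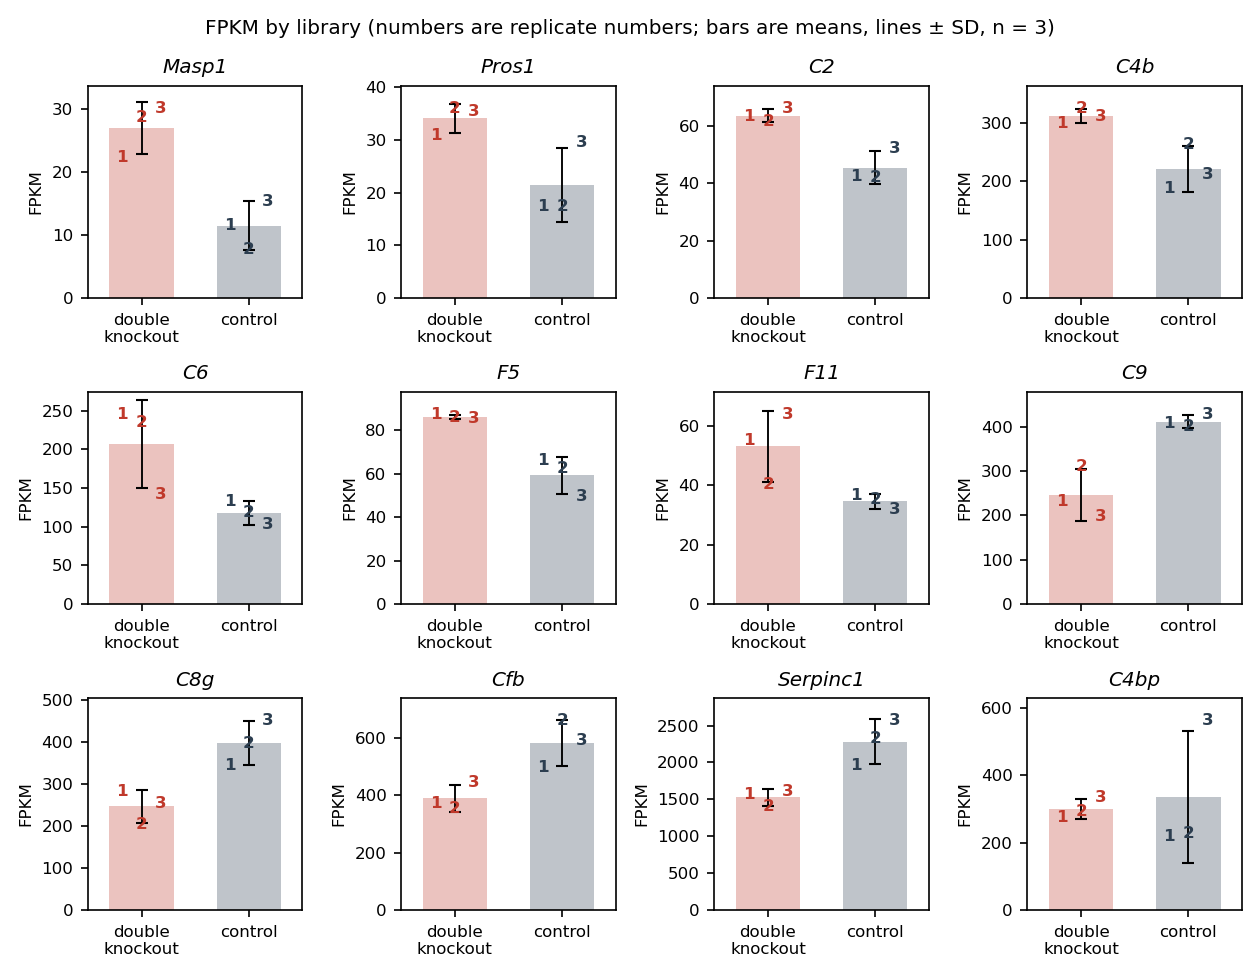
FPKM of 12 genes in double knockout (left) and control (right) livers, with replicate numbers as symbols, bars at the mean and lines at ± SD (n = 3). Knockout values lie above control values from Masp1 to F11 and below them from C9 to Serpinc1; C4bp shows control replicate 3, at 561 FPKM, apart from both groups.

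Control replicate 3 held the highest value of 19 of the 44 members (43.2%, against 26.6% of tested genes), among them 12 of the 22 coagulation genes and all 4 of fibrinogen and F13b. Relative to the mean of control replicates 1 and 2, the median member was higher by 0.14, 0.17 and 0.20 (log2) in knockout replicates 1, 2 and 3, and by 0.35 in control replicate 3. The medians of all tested genes were between -0.04 and 0.01. Saa1, serum amyloid A, an acute phase gene outside the set, measured 621, 5462 and 5050 FPKM in the same knockouts, against 125, 130 and 10483 FPKM in controls. The acute phase level thus varied within both groups, and its part in the members' values was not tested. Of the other members, F5, C6, F11 and C1ra were lowest in control replicate 3.

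**Figure D5:**
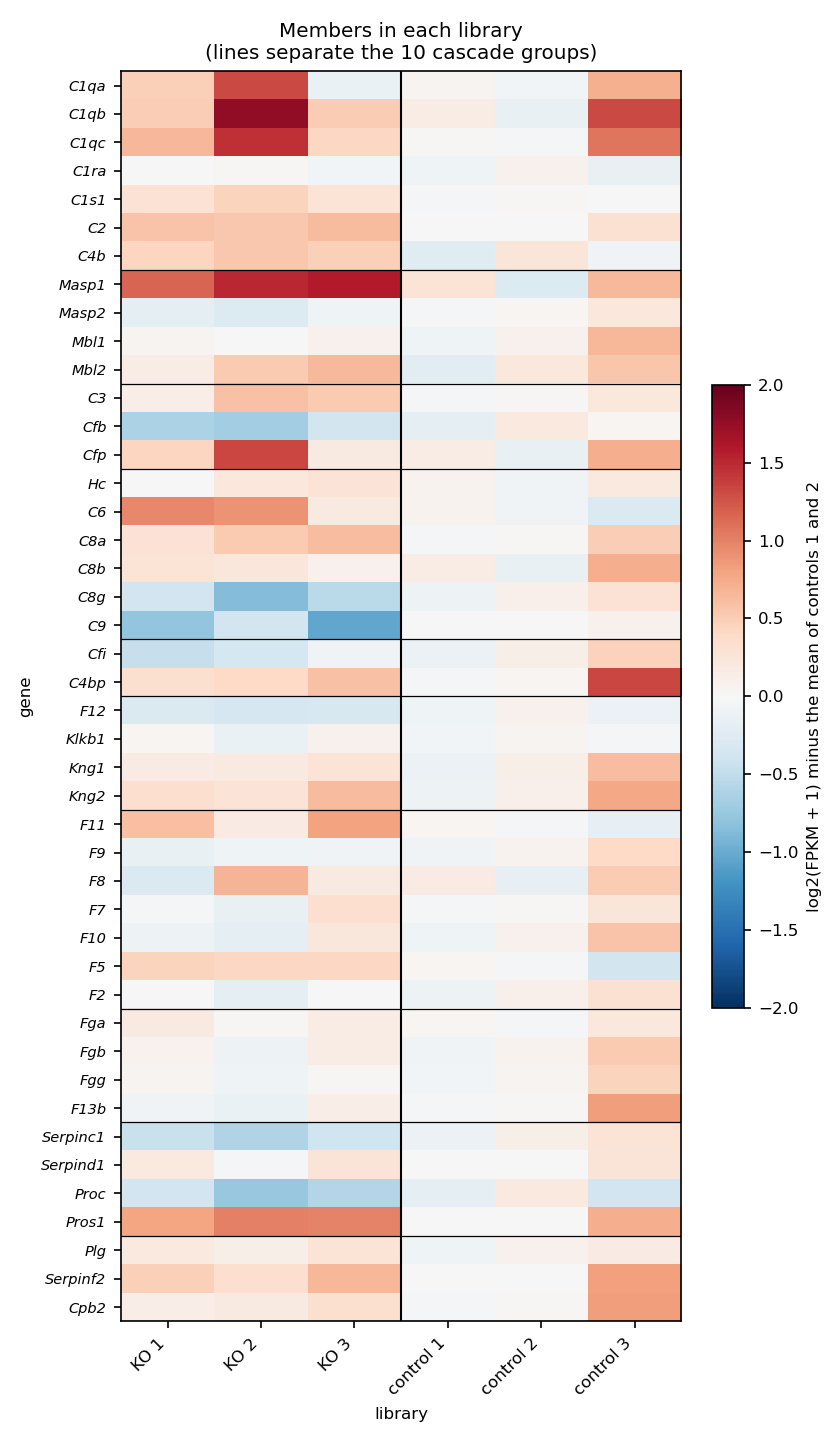
Difference of log2(FPKM + 1) from the mean of control replicates 1 and 2 (colour) for the 44 genes (rows, grouped by cascade) in the 3 double knockout (KO) libraries, left, and the 3 control libraries, right. Control 3 is red for most coagulation genes, and over all 44 genes its median is 0.35, while the knockouts share the red of Masp1 and Pros1 and the blue of C9, Cfb and Serpinc1.

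RefSeq promoter windows on GRCm38.p6, from 250 bases before to 50 after the start site, were found for 35 of the 44 genes in 37 windows. None held the inverted repeat that FXR binds (AGGTCA, any 1 base, then its reverse complement TGACCT), with up to 1 mismatch on either strand. Of all 32851 windows, 0.0822% hold it, so it would be missing from most sets of 37 windows. Sites farther from the start were not searched. The palindrome of the liver factor HNF1 (GTTAAT, any 1 base, ATTAAC), with up to 2 mismatches, was in 6 of the 37 member windows (those of C4bp, F13b, F2, Fga, Fgb and Hc) and in 1.36% of all windows. The palindrome TTCCNGGAA, bound by STAT3, a mediator of the acute phase, was in the windows of Fga and Pros1 and in 1.15% of all windows. Pros1 is shown because it was called without control replicate 3. C4bp, Fga and Fgb were picked from the genes that held a match and had their highest value in that library. F13b and F2 also met both conditions and are not shown, and a link between the matches and that library was not tested. No match of one motif overlapped one of the other. Capitals mark the matches, TTCCNGGAA in Pros1 and first in Fga, and the HNF1 palindrome in the rest.
Pros1, chr16:62854057-62854356, plus strand: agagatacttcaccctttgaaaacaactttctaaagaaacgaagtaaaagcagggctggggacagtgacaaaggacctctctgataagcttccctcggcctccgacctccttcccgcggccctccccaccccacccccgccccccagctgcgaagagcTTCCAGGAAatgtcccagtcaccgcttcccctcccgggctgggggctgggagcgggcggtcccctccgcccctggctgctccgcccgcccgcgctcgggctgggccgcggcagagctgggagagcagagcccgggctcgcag
C4bp, chr1:130661569-130661868, minus strand: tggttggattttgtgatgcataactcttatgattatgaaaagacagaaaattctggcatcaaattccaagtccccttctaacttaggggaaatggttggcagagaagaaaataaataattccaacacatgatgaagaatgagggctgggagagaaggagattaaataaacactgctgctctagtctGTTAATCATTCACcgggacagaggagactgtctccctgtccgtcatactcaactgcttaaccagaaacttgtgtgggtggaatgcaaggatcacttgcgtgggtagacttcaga
Fga, chr3:83025903-83026202, plus strand: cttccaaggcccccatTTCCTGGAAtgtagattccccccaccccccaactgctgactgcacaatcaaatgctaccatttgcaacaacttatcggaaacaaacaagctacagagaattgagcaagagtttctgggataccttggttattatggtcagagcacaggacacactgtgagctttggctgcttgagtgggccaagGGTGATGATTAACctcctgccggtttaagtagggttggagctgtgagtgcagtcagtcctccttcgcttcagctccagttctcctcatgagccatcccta
Fgb, chr3:83049814-83050113, minus strand: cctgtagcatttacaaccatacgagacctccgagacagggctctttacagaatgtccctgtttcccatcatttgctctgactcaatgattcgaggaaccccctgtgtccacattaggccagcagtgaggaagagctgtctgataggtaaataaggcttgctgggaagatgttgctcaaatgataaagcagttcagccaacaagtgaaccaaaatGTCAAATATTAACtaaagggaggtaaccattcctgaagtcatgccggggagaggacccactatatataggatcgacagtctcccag

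Of 64 further genes of the same systems, such as receptors, cofactors and surface regulators, 46 passed the filter. None passed limma's threshold. At an unadjusted limma p under 0.05, 2 of the 46 were higher and 6 lower, against 6.97% and 7.98% of all tested genes. Of the 46, 23 had a positive and 23 a negative log2 fold change, and the median was -0.01. The authors' deposited table called 4 of the 46, against 4.58% of all genes it tested, and 3 of the 4 are described here. Cfd, factor D, the protease that cuts factor B, was called higher there (q = 0.0445), at 3.11, 12.3 and 3.75 FPKM in knockouts, against 1.29, 6.22 and 0.675 FPKM in controls, which overlap. S100a10, which with annexin A2 binds plasminogen, was called lower (q = 0.0346), at 146, 133 and 153 FPKM in knockouts, against 212, 243 and 258 FPKM in controls. Serpine2, an inhibitor of thrombin, was called lower (q = 0.00569), at 7.38, 5.76 and 3.68 FPKM in knockouts, against 11.9, 15.0 and 6.57 FPKM in controls. Of these 3, S100a10 was the 1 whose groups did not overlap, and limma gave it an adjusted p of 0.134.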

How the data were processed

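Libraries from whole livers of 6 mice (3 per group) were read as FPKM, deposited by the authors in 1 table with 1 column per mouse. Per the submitters' processing notes, the tools were Cuffdiff 2.2.1, Picard 1.119, STAR 2.4.2a, Trimmomatic and bcl2fastq 2.17.1.14, and the builds GRCm38 and mm10; settings are not listed there. The sources used here do not give strand use or the treatment of reads shared between genes. The q-values quoted are the authors' own, from their deposited comparison table, and the limma p-values come from the fit described next. Sums of FPKM per library were 610618 to 841745, and the depth was estimated from the size of 1 fragment in low values.

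Values were tested as log2(FPKM + 1) with limma 3.58.1 (R 4.3.3, moderated test with a mean-variance trend, two-sided) over the 11810 genes that averaged 0.5 FPKM or more, with Benjamini-Hochberg adjustment and a threshold of 0.05. Fold changes on this scale understate the change of low genes. The fit was tested on simulated data. With 3 animals against 3, an exact permutation test cannot go below p = 0.1, so none was used. Labels do not say that the samples are separate litters or cages. The p-values set group differences against the spread within the groups of these 6 samples. Other tested settings were pseudocounts, filters, scalings, library weights, a replicate block and leaving out each library.

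The members and gene lists were chosen with earlier results of these data known. Per-library values are given for members called by limma or by the authors, members whose groups do not overlap, and the most abundant and most different member of each cascade; further members were added where their cascade needed them. Klkb1 has 2 rows, and the row listed at 0.123 FPKM or less was not used. Positions are from GENCODE M21 (GRCm38), which holds 48343 of the 48699 identifiers. One further gene outside the members is not reported here.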

Additional observations from a re-analysis of the deposited data

How the results depend on the processing

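Over 15 alternatives, 28 of the 44 members kept the sign of their log2 fold change, and 16 turned under at least 1; the largest of these 16 was 0.32 in size. The cause was not tested. Genes called higher numbered 20, and 13 with a pseudocount of 0.1, 0 without a filter, 10 with length and GC trends removed, 326 with library weights and 0 to 154 when 1 library was left out. Genes called lower numbered 17, and 2 without a filter, 237 with library weights and 2 to 88 when 1 library was left out. Members called numbered 3 higher (Masp1, C2 and Pros1) and 1 lower (C9) with library weights, which gave control replicate 3 a weight of 0.232, and 0 to 2 higher when 1 library was left out. The median of the members was 0.20 under quantile normalization and 0.00098 to 0.19 when 1 library was left out, highest without control replicate 3. Signs turned under quantile normalization for Mbl1 (0.065), C8b (0.18), C4bp (0.27), F8 (-0.059), F7 (0.10), F10 (0.013) and Cpb2 (0.16). With length and GC trends removed they turned for Hc (-0.0025), C8b (0.00096), Klkb1 (-0.063), F8 (-0.15), F7 (0.023) and Cpb2 (0.069). With library weights they turned for C1ra (-0.024), C8b (0.20), C4bp (0.31), F7 (0.0094) and Cpb2 (0.13), and with a pseudocount of 0.1 for F8 (-0.0053). Leaving out 1 library gave log2 fold changes of -0.065 to 0.66 for C1qa, -0.013 to 0.10 for C1ra, -0.33 to 0.050 for Mbl1, -0.24 to 0.19 for C8b and -0.25 to 0.43 for C4bp. The ranges were -0.026 to 0.084 for Klkb1, -0.16 to 0.21 for Kng1, -0.018 to 0.42 for Kng2, -0.22 to 0.26 for F8 and -0.18 to 0.071 for F7. They were -0.0022 to 0.12 for Fga, -0.25 to 0.043 for Fgb, -0.010 to 0.14 for Serpind1 and -0.22 to 0.21 for Cpb2. With the replicate number as a block, 27 genes were called higher, 23 lower and 0 members. Same-numbered libraries correlated at 0.220, -0.0754 and 0.301 in their deviations from the group means. Knockout replicate 1 correlated best with control replicate 2 (0.254), and the other pairs of unlike number lay between -0.321 and 0.0968. With so few libraries, these correlations cannot decide whether same-numbered libraries share more than a number. Depth limits F8 most.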
